A study of Mus musculus with 4 samples.

Results

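The comparison described here set 1 array of mouse colonic epithelium carrying the genotype label Bmi1ΔIEC against 1 array carrying the label Mel18ΔIEC, and asked how the losses of these paralogous genes differed. It used 2 of the 4 arrays of the study and the 34945 of 45037 probe sets that the platform annotation pairs with exactly 1 gene symbol. All 4 genotypes (wild type, Bmi1ΔIEC, Mel18ΔIEC and the double knockout Bmi1ΔIEC Mel18ΔIEC) were on the C57BL/6 background, 6 to 8 weeks old and described as sex-matched. All mice, the wild type included, were injected with azoxymethane, a colon carcinogen, at 10 mg/kg, and 5 days later drank 3.5% dextran sulfate sodium, which injures the colonic epithelium, for 5 days. They were killed on day 12. The epithelium was released from the opened colon by shaking in 5 mM EDTA, with no sorting step in the protocol, so other cells of the mucosa can be present, and 200 ng of total RNA was labelled for each array. The labels give neither the promoter that drove the deletion nor the deleted exons. They also do not say how many mice stand behind an array: the design text sets a number in brackets after each genotype (3 for Bmi1ΔIEC, 2 for Mel18ΔIEC, 4 for wild type and 1 for the double knockout) without saying what it counts. With 1 array a side no difference has a replicate check, so none has an error or a p-value, and every statement below compares these arrays and not the genotypes at large.

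Bmi1 and Mel18, whose current gene symbol is Pcgf2, are PCGF proteins, the RING-finger partners of Ring1 and Rnf2 in Polycomb repressive complex 1. That complex ubiquitinates histone H2A and compacts chromatin, and the best known genes it keeps silent are the Cdkn2a locus and developmental regulators such as the Hox clusters. In the gut Bmi1 is also known as a marker of a crypt cell population that can restore stem cells after injury.

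The targeted genes were read first. The brighter Bmi1 probe set read 116 intensity units (wild type), 334 (Bmi1-labelled), 160 (Mel18-labelled) and 432 (double knockout), and the other read 88.4, 339, 135 and 399. Both were thus brightest on the arrays whose label includes Bmi1ΔIEC, by 1.07 and 1.33 on the log2 scale between the single knockouts, which goes against a loss of transcript at these probes. The brighter Pcgf2 probe set read 30.2 (wild type), 33.4 (Bmi1-labelled), 39.8 (Mel18-labelled) and 31.96 (double knockout), near the floor used below, and the other read 9.53, 12.6, 10.6 and 11.5, under it everywhere. Their differences between the single knockouts were -0.25 and 0.25. Because the deleted exons are not given, a probe set outside the deleted part checks nothing, and each array is named here by its label. Where 4 values follow each other without names below, their order is wild type, Bmi1-labelled, Mel18-labelled and double knockout.

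The single-knockout arrays were the closest pair of the 4. Where a gene had several probe sets the one brightest on average was used, and a gene was counted as higher or lower on the Bmi1-labelled array when the values differed at least 2-fold and the higher one reached the floor, 33.4 units, the median of all probe-set values. Of 11679 genes with a value at or above that floor on either array, 104 (0.890%) were higher and 61 (0.522%) were lower on the Bmi1-labelled array, together 1.41%. By the same rule 514 genes (4.34%) differed between wild type and double knockout, 674 (5.68%) between wild type and the Mel18-labelled array, 1036 (8.68%) between wild type and the Bmi1-labelled array, 1004 (8.45%) between the Mel18-labelled and double-knockout arrays and 1481 (12.4%) between the Bmi1-labelled and double-knockout arrays. The median difference over all genes tested was 0.05 on the log2 scale, the central 95% of them ran from -0.57 to 0.66, and 91.3% lay within 0.5 of 0. The 2-fold line cut through a continuum: 31 of the genes counted differed by 1 to 1.1, and 61 genes stood just outside it at 0.9 to 1. For 35 of the higher and 13 of the lower genes the smaller value lay under the floor, where the size of a difference depends on background signal.

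**Figure D1:**
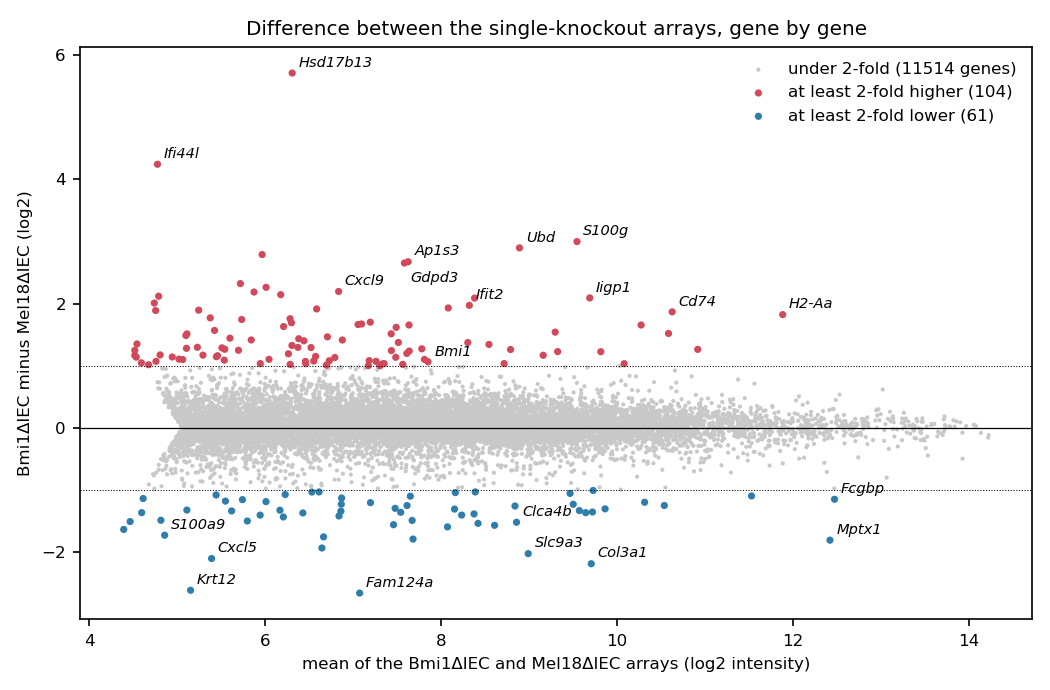
Each point is a gene at or above the floor, with the mean log2 intensity of the Bmi1ΔIEC and Mel18ΔIEC arrays on the horizontal axis and the log2 difference between them on the vertical axis; dotted lines mark 2-fold. The 104 red genes lie above the upper line and the 61 blue genes below the lower one, while 91.3% of genes lie within 0.5 of 0.

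Several of the brightest higher genes serve antigen presentation. MHC class II molecules carry peptides to helper T cells, and in epithelium and in antigen-presenting cells their genes are switched on by the coactivator Ciita. Of the 10 class II genes at or above the floor, 6 were higher on the Bmi1-labelled array and none was lower, with a median difference of 1.59 against 0.05 for all genes. Of all genes tested 0.890% were higher and 0.522% lower. H2-Aa, the alpha chain of the I-A molecule, read 9998 (wild type), 7096 (Bmi1-labelled), 2005 (Mel18-labelled) and 6884 (double knockout). The invariant chain gene Cd74, whose product occupies the class II groove during assembly, read 4371, 3016, 827 and 2678 in the same order. H2-DMa, which helps exchange that placeholder for peptide, read 978, 687, 161 and 494, a difference of 2.09 between the single knockouts. Its second probe set was under the floor on every array (0.95), and the mean of both gives 1.52. For all 3 genes the Mel18-labelled array was the low one, and the other 3 arrays stood well above it. The same order of a single low array held for H2-Ab1 (difference 1.52) and H2-Eb1 (1.66), the remaining chains of the classical molecules. Ciita itself read 196 (wild type), 76.7 (Bmi1-labelled), 22.5 (Mel18-labelled) and 103 (double knockout), a difference of 1.77 with the Mel18 value under the floor. H2-Oa (0.71) and H2-DMb2 (0.46) stayed within 2-fold, and Ctss (-0.07) and Ifi30 (-0.02), lysosomal enzymes that prepare peptides, read nearly alike. All 3 further probe sets of H2-Aa were higher too, by 1.499 to 2.29.

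The class I pathway, which displays peptides from the cell interior to cytotoxic T cells, leaned the same way by less. All 14 of its genes at or above the floor were above 0, with a median of 0.42, but only Psmb9 passed 2-fold, against 1.41% of all genes tested. Psmb9, a catalytic subunit of the immunoproteasome, read 1514 (wild type), 1377 (Bmi1-labelled), 588 (Mel18-labelled) and 1029 (double knockout). Its partner subunit Psmb8 differed by 0.92, the peptide transporter gene Tap1 by 0.79 and the light chain gene B2m by 0.62. The class I heavy chains H2-K1 (0.26) and H2-D1 (0.17) differed little.

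Genes that interferon gamma is known to induce formed the other large group among the higher genes. Of 18 GTPases, chemokines and regulators at or above the floor, 11 were higher on the Bmi1-labelled array and none was lower, with a median of 1.26. Of all genes tested 0.890% were higher and 0.522% lower. Ubd, which encodes the ubiquitin-like modifier FAT10, read 2443 (wild type), 1294 (Bmi1-labelled), 174 (Mel18-labelled) and 3245 (double knockout), a difference of 2.90. Iigp1, an immunity-related GTPase that acts on the vacuoles of intracellular parasites, read 1479.6, 1703, 399.7 and 811. Gbp8, a guanylate-binding protein gene, read 257, 141, 29.4 and 86.1. On each of these genes, too, the Mel18-labelled array was the lowest of the 4. Other GTPase genes past 2-fold were Gbp6 (1.67), Gbp3 (1.34), Gbp2 (1.26), Igtp (1.26) and Ifi47 (1.23). The T-cell-attracting chemokine Cxcl9 read 270 (wild type), 244 (Bmi1-labelled), 53.3 (Mel18-labelled) and 93.9 (double knockout). Its second probe set was under the floor on all 4 arrays (0.21), and the mean of both gives 1.20. The neighbours of Cxcl9, Cxcl10 and Cxcl11, differed by 1.47 and 1.44. Members that stayed within 2-fold included Irgm1 (0.84), Gbp7 (0.62), Ido1 (0.53) and the transcription factor Irf1 (0.16), and the values of Cd274, the checkpoint ligand PD-L1, were equal.

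Genes of the antiviral type I interferon response differed far less. Of 35 at or above the floor, 2 were higher, Ifi44l and Ifit2, against 0.890% of all genes tested. The median was 0.25, although 32 of the 35 were above 0. Ifit2, which binds viral RNA, read 1575 (wild type), 633 (Bmi1-labelled), 161 (Mel18-labelled) and 511 (double knockout). Ifi44l read 5.72, 119, 6.30 and 48.1, so that it was at background on the wild-type and Mel18-labelled arrays, and another of its probe sets gave a difference of 3.64. Its remaining probe set was under the floor on all 4 arrays (0.91), and the mean of all 3 gives 2.93. The nearest other members were Cmpk2 (0.77), Oasl1 (0.75) and Ifit1 (0.56). In all, 20 of the 104 higher genes and none of the 61 lower genes were on these MHC and interferon lists. The lists held 10 (class II), 14 (class I), 18 (interferon gamma) and 35 (antiviral) of the 11679 genes tested. They were chosen with earlier results of these data known. At 0.522% of all genes lower, few or none are expected among them.

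Promoter windows of 250 bases before to 50 bases after the start site, from RefSeq with build GRCm38.p6, were searched on both strands for the letters GAAANNGAA, the core of the interferon-stimulated response element bound by IRF factors. They are shown because the members that were higher together are known targets of these factors. Of the 104 higher genes 76 had a window, and 11 of those held the response element letters (14.5%), against 3 of 48 lower genes (6.25%) and 788 of 9437 genes tested (8.35%). In the list of interferon gamma genes 9 of 13 windows held them, in the antiviral list, whose genes differed far less, 12 of 25, and in the class II list 1 of 7. Among the higher genes on none of the MHC and interferon lists 5 of 63 did (7.94%). Across the 3 lists the share of windows with the letters did not follow the order of the median differences. A CArG box, bound by serum response factor, stood in 1 of 76 windows of higher genes, in 1 of 48 of lower genes and in 151 of 9437 of all. The 90 bases around the match in 6 higher genes follow, each 5′ to 3′ on the strand of the gene and ending before its start site; capitals mark the response element letters on either strand. The coordinates are chr5:92328206-92328295 (minus strand) for Cxcl9, chr5:92349050-92349139 (minus) for Cxcl10, chr3:142620564-142620653 (plus) for Gbp2, chr3:142559954-142560043 (plus) for Gbp3, chr11:58199466-58199555 (plus) for Igtp and chr3:151762892-151762981 (minus) for Ifi44l.
Cxcl9: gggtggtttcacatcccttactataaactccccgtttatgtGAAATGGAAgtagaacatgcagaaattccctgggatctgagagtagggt
Cxcl10: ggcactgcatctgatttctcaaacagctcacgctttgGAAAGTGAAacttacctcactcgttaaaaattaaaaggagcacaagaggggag
Gbp2: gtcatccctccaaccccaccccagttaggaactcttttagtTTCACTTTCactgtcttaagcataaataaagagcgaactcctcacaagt
Gbp3: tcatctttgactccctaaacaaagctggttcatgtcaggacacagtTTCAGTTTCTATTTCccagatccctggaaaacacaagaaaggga
Igtp: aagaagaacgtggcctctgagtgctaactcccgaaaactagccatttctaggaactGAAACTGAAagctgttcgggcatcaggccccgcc
Ifi44l: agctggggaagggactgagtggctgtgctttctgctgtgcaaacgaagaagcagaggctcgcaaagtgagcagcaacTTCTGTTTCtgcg
A match describes these letters only. The windows of Ubd, Ifit2, H2-DMa, H2-Aa, H2-Eb1, Ifi47 and Psmb9 did not hold these letters, which draws nothing about the factors.

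The preparation was not sorted, so markers of other cells were read beside these genes. In such bulk RNA, fewer cells of a type cannot be told apart from less RNA per cell. Of 15 T and NK cell markers at or above the floor, 2 were higher on the Bmi1-labelled array, against 0.890% of all genes tested. They were Nkg7, a granule protein of cytotoxic lymphocytes (77.3, 72.2, 30.0 and 139 in the order given above), and the chemokine Ccl5 (271, 306, 130 and 576). The defining T cell receptor gene Cd3e read 96.2, 85.2, 87.3 and 105, and Ifng, the gene of interferon gamma itself, stayed under the floor on every array. The summed intensity of the T and NK list was 1622 on the Bmi1-labelled array and 1257 on the Mel18-labelled array, with a median difference of 0.32, or 0.53 with the floor at percentile 75. Of 24 macrophage and dendritic cell markers, 18 were below 0 and the median was -0.34, or -0.16 with no floor, with summed intensities of 9764 and 10666. The complement gene C1qa differed by -0.81 and the receptor gene Csf1r by -0.61, while Cd14, a receptor for bacterial lipopolysaccharide, was higher (1199, 1549, 756 and 722). No marker on these lists was at 0. Of 11 B and plasma cell markers, 7 were below 0 and 4 above, with a median of -0.09, or -0.32 with the floor at percentile 75. Their summed intensity was 9341 on the Bmi1-labelled array and 12151 on the Mel18-labelled array. The part of all these cells in the MHC and interferon differences was not tested.

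The largest difference of all was in a gene of lipid metabolism. Hsd17b13, a hydroxysteroid dehydrogenase of lipid droplets best known from liver, read 7.86 (wild type), 573 (Bmi1-labelled), 11.0 (Mel18-labelled) and 7.81 (double knockout), a difference of 5.71. It was bright on the Bmi1-labelled array alone, and its other probe set stayed under the floor on all 4, so that the mean of both gives 3.11. Of the carboxylesterases, which hydrolyse ester drugs and lipids, 3 whose genes are neighbours were higher: Ces1g (31.7, 118, 23.5 and 23.2 on the 4 arrays in the same order), Ces1c (23.4, 73.1, 19.7 and 92.2) and Ces1d (74.5, 315, 102 and 22.5), of which Ces1d was named after its values were seen. Their relatives Ces1f (0.82) and Ces1e (0.68) were within 2-fold. Cyp11a1, the enzyme that begins steroid synthesis from cholesterol, read 24.6, 96.7, 45.004 and 15.7, and the glutathione transferases Gsta4 (1.00, just inside 2-fold) and Gsta3 (0.99) stood at the line. Over the whole list of 28 xenobiotic and steroid genes, however, 14 were above and 14 below 0, with a median of 0.01. In it 3 were higher, against 0.890% of all genes tested, and Cyp2d34 (-0.76), Hsd3b2 (-0.73) and Cyp2c55 (-0.73) leaned the other way.

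Other genes among the 20 highest had varied roles. S100g, the vitamin D-dependent calcium-binding protein calbindin-D9k of absorptive epithelium, read 850.1 (wild type), 2109 (Bmi1-labelled), 264 (Mel18-labelled) and 2271 (double knockout). Gdpd3, a glycerophosphodiester phosphodiesterase, read 240, 481, 76.4 and 181. Both were at least 2-fold above wild type on the Bmi1-labelled array and at least 2-fold below it on the Mel18-labelled array. Ap1s3, a small subunit of the clathrin adaptor AP-1, read 43.5, 499, 78.2 and 89.96, bright on the Bmi1-labelled array alone. Rsad1 (52.7, 186, 49.4 and 55.4) had the same shape, but the mean over its probe sets, of which the others were under the floor, gives 0.57. The metalloreductase gene Steap4 read 253, 528, 139 and 58.4. The mean with its second probe set (0.51) gives 1.22. Myl7, a myosin light chain of cardiac atria, read 132, 152, 34.4 and 104, low on the Mel18-labelled array only. Itgb8, an integrin that activates latent TGF-beta, and Prkar2b, a regulatory subunit of protein kinase A, read 57.6 and 53.6 on the Bmi1-labelled array and were under the floor on the other 3. The mean over the probe sets of Prkar2b, of which the others were under the floor, gives 1.41.

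**Figure D2:**
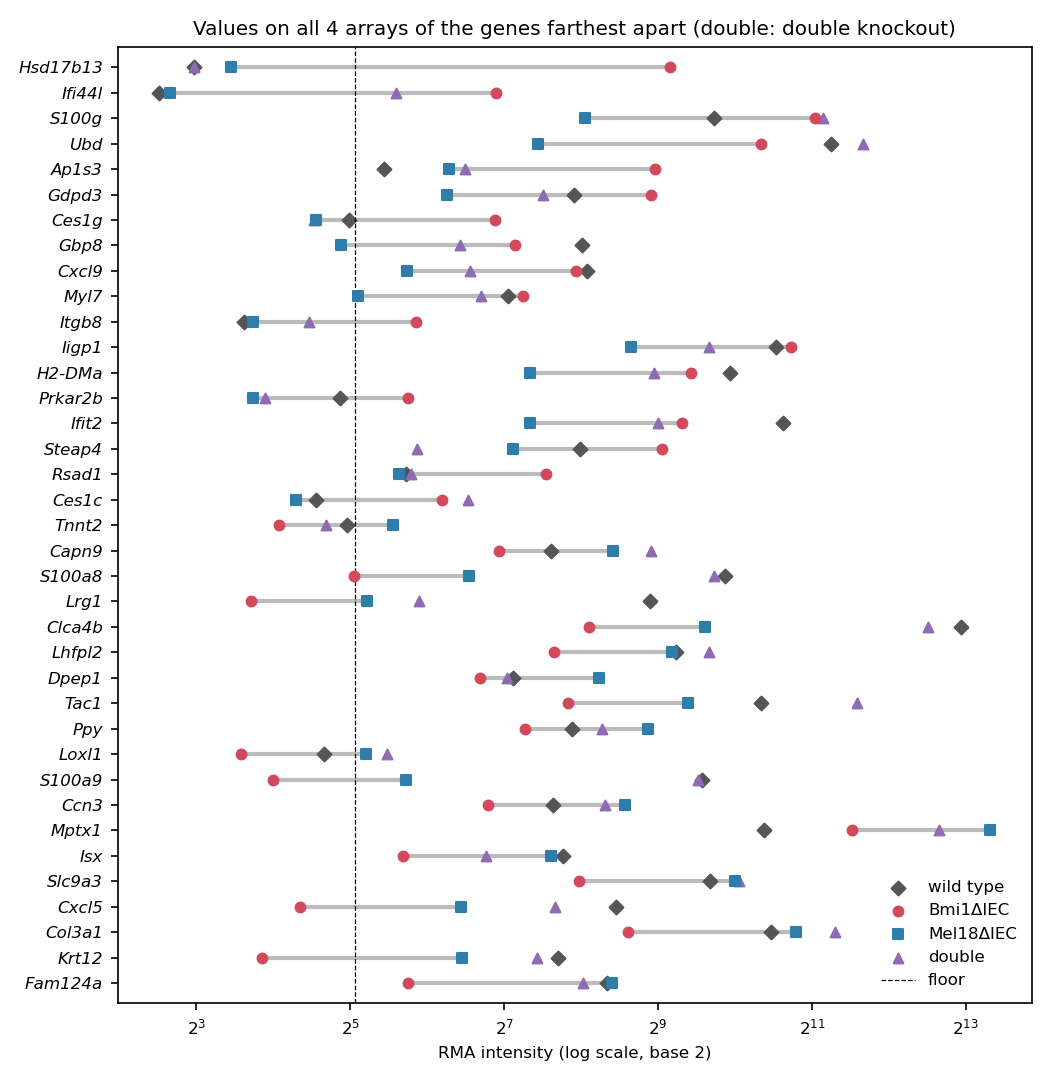
Intensity on all 4 arrays, on a log axis of base 2, for the named genes among the 20 highest and 20 lowest differences, with a grey bar joining the Bmi1ΔIEC (red circle) and Mel18ΔIEC (blue square) values and a dashed line at the floor of 33.4 units. Hsd17b13 is bright on the Bmi1ΔIEC array alone (573), whereas for Ubd and H2-DMa the Mel18ΔIEC array is the low one (174 and 161) and for Fam124a and Slc9a3 the Bmi1ΔIEC array is (53.7 and 252).

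Crypt base genes leaned towards the Bmi1-labelled array. Lgr5, the receptor that marks cycling intestinal stem cells, read 21.7 (wild type), 93.6 (Bmi1-labelled), 35.1 (Mel18-labelled) and 18.8 (double knockout), a difference of 1.42. Smoc2 (42.0, 188, 94.9 and 20.2), a secreted stem cell marker, and Ascl2 (44.8, 130, 69.2 and 28.7), a transcription factor of stem cell fate, had the same order with differences of 0.98 and 0.91. All 3 were brightest on the Bmi1-labelled array, with the Mel18-labelled array next. The Wnt feedback gene Axin2 differed by 0.62 and Myc by 0.69. Prom1, whose product CD133 also marks many non-stem epithelial cells, was lower instead (2118, 964, 2287 and 5341). Over the 20 stem cell and Wnt genes the median was 0.37, with 16 above 0, 1 higher and 1 lower. Of all genes tested 0.890% were higher and 0.522% lower.

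DNA replication genes differed by a small amount in 1 direction. Of 29 at or above the floor, 27 were above 0 with a median of 0.49. None passed 2-fold, and at 1.41% of all genes few or none are expected in a list this short. The 6 subunits of the replicative helicase, Mcm2 to Mcm7, differed by 0.39, 0.80, 0.64, 0.74, 0.60 and 0.57. Mcm5 read 714 (wild type), 481 (Bmi1-labelled), 287 (Mel18-labelled) and 143 (double knockout), a stepwise order. Against wild type the list's median was -0.05 on the Bmi1-labelled array and -0.53 on the Mel18-labelled array. Mitosis genes differed less, with a median of 0.10 over 25 genes and at most 0.49 (Bub1b, a spindle checkpoint kinase).

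**Figure D3:**
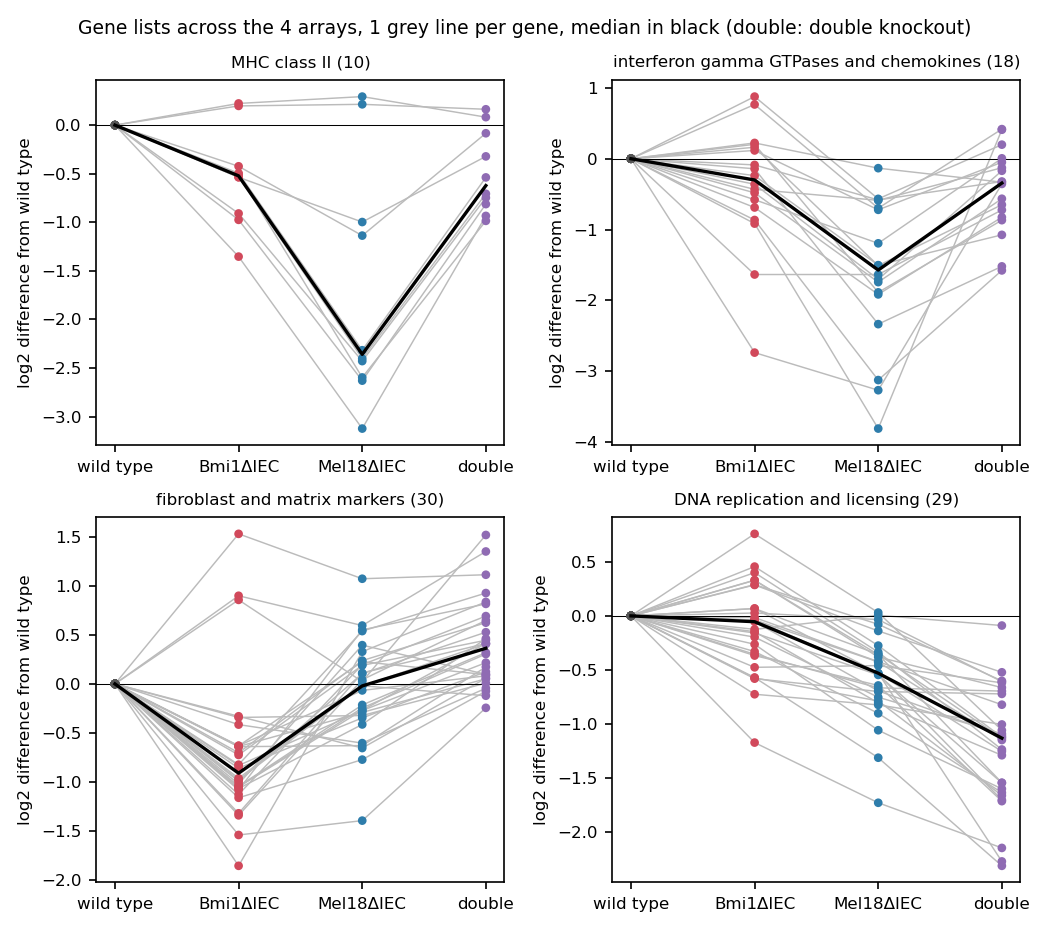
Log2 difference from the wild-type array on the vertical axis, for each of the 4 arrays on the horizontal axis, in 4 gene lists; each grey line is a gene, points are coloured by array and the black line is the median. The class II median is -0.52 on the Bmi1ΔIEC array and -2.36 on the Mel18ΔIEC array, whereas the fibroblast and matrix median is -0.91 and -0.02.

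The list with the most genes lower on the Bmi1-labelled array was that of the extracellular matrix. Of 30 fibroblast and matrix markers at or above the floor, 8 were lower on the Bmi1-labelled array and none was higher. Of all genes tested 0.522% were lower and 0.890% higher. In the list 25 were below 0, and the median was -0.79, or -0.53 where all probe sets of a gene were averaged. Col3a1, a fibrillar collagen of connective tissue, read 1417 (wild type), 392 (Bmi1-labelled), 1779 (Mel18-labelled) and 2528 (double knockout). Col1a2, a chain of type I collagen, read 520, 205, 535 and 814. The Bmi1-labelled array was the low one of the 4 in both. The others past 2-fold were Loxl1 (-1.63), which crosslinks elastin, Col5a2 (-1.43), Col6a3 (-1.41), the microfibril gene Mfap5 (-1.36), Col1a1 (-1.32) and Sparc (-1.10). Sparc, a collagen-binding protein, had further probe sets that disagreed (-1.23 and 0.43). Loxl1 and Mfap5 only just reached the floor, at 37.0 and 38.8 units on the Mel18-labelled array. Further probe sets under the floor gave -0.56 (Loxl1), -0.65 (Mfap5), -0.42 (Col5a2) and -0.09 (Col1a2). Those at or above it gave -0.34 (Col1a1), -1.63 (Col1a2) and -1.81 (Col3a1). Over all 20 collagen genes at or above the floor 18 were below 0 and 6 were lower. The fibroblast receptor Pdgfra differed by -0.91 and the proteoglycan Lum by -0.94, but Vim, a filament protein of mesenchymal cells, by -0.01, and Timp3 (0.83) and Fap (0.46) leaned the other way. The summed intensity of the list was 7885 (wild type), 4214 (Bmi1-labelled), 7407 (Mel18-labelled) and 10951 (double knockout), with no member at 0. Of 18 smooth muscle markers 16 were below 0, with a median of -0.32 (Actg2 -0.71, Acta2 -0.55). None was past 2-fold, where few or none are expected at 1.41% of all genes. Endothelial markers had a median of 0.19, or 0.02 with probe sets averaged. The part of stromal cells in these differences was not tested.

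Genes of epithelial identity were compared next, which does not show how much of either preparation was epithelium. Of 23 such genes, all at or above the floor, none passed 2-fold. With 1.41% of all genes past 2-fold, few or none are expected in a list this short. Of the 23 genes 20 were below 0, with a median of -0.09. Their summed intensity was 109332 on the Bmi1-labelled array and 115161 on the Mel18-labelled array. Some genes of mature epithelial types were among the lower genes. Slc9a3, the sodium-hydrogen exchanger NHE3 of the absorptive brush border, read 819 (wild type), 252 (Bmi1-labelled), 1024 (Mel18-labelled) and 1059 (double knockout). Its second probe set gave -0.90, and the mean of both gives -1.46. Dpep1, a brush border dipeptidase, read 138, 103, 302 and 131. These were the 2 colonocyte genes of 28 past 2-fold, against 1.41% of all genes tested. Of the 28, 25 were below 0 with a median of -0.27. Car4 differed by -0.71 and the hormone gene Guca2b by 0.59. Isx, an intestine-specific homeobox factor that restrains vitamin A uptake, read 217, 51.3, 195 and 109. For Slc9a3 and Isx the Bmi1-labelled array was low, and for Dpep1 the Mel18-labelled array was high.

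Goblet cells secrete the mucus layer, and 3 of their 23 genes were lower, against 0.522% of all genes tested. Of the 23, 19 were below 0, with a median of -0.23 against 0.05 for all genes. Fcgbp, a mucus protein crosslinked to the main mucin, read 8564 (wild type), 3813 (Bmi1-labelled), 8439 (Mel18-labelled) and 13349 (double knockout). Capn9, a calpain protease of the digestive tract, read 195, 122, 341 and 482, and Retnlb, the resistin-like cytokine of goblet cells, read 2665, 116, 298 and 716. Fcgbp was low on the Bmi1-labelled array, whereas Retnlb was far below wild type on both single-knockout arrays. The main mucin Muc2 differed by -0.80 and Clca1 by -0.97. Mptx1, a mucosal pentraxin, read 1328, 2929, 10229 and 6427, brightest on the Mel18-labelled array. The hormone genes Ppy (237, 155, 467 and 309), for pancreatic polypeptide, and Tac1 (1298, 227, 671 and 3064), for substance P, were lower as well, while the median of 17 enteroendocrine and tuft cell genes was 0.04. Averaged with its second probe set, which was under the floor, Tac1 gave -0.72.

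Several inflammation genes were lower on the Bmi1-labelled array. Cxcl5, a chemokine that attracts neutrophils, read 350.3 (wild type), 20.3 (Bmi1-labelled), 86.9 (Mel18-labelled) and 202 (double knockout). S100a9 read 762, 16.0, 52.7 and 731, and S100a8, which encodes its partner in calprotectin, read 935, 33.1, 93.4 and 851. All 3 were below the floor in the Bmi1-labelled sample, and both single knockouts were below the other arrays. Of the other neutrophil markers Ltf leaned the other way (0.96), and the summed intensity of the list was 434 and 557 on the single knockouts against 2845 on wild type; Ly6g was not among the genes measured here. Clca4b, of a family of regulators of calcium-activated chloride channels, read 7840, 274, 784 and 5849. Lrg1, an acute-phase glycoprotein, read 476, 13.1, 37.2 and 59.3. Il1b differed by only -0.42, and 17 of 21 cytokine and chemokine genes were below 0 with a median of -0.13. Of the antimicrobial genes Pla2g2a, a secreted phospholipase, was lower with Retnlb (534, 114, 279 and 35.4).

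The other genes among the 20 lowest had varied roles. Fam124a read 322 (wild type), 53.7 (Bmi1-labelled), 338 (Mel18-labelled) and 259 (double knockout). Krt12, a keratin best known from the cornea, read 208, 14.4, 87.8 and 172, and its other probe set gave -2.98. Ccn3, a matricellular protein, read 200, 110, 381 and 318. In the first 2 genes the Bmi1-labelled array was the low one, and Ccn3 was highest on the Mel18-labelled array. Lhfpl2 read 602, 201, 582 and 812, and its mean over probe sets is -0.79. Tnnt2, cardiac troponin T, read 31.2, 16.8, 47.1 and 25.8. Its sign turned to 0.31 once probe sets designed against several transcripts were left out, and those that remained were under the floor.

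Apart from Bmi1, no gene of the Polycomb lists at or above the floor passed 2-fold. Over all genes tested 1.41% did, so lists this short are expected to hold few or none. The other PCGF paralogs lay between -0.25 (Pcgf2) and 0.26 (Pcgf1), with Pcgf5 at 0.09, Pcgf3 at -0.09 and Pcgf6 at -0.04. Of 13 other PRC1 subunits none passed 2-fold; Kdm2b, which brings the complex to CpG islands, was farthest apart at 0.82 (354, 468, 265 and 166 on the 4 arrays), followed by Cbx7 (0.33) and Rnf2 (0.32). Of 11 PRC2 subunits, which write the H3K27 methyl mark, none passed 2-fold either, and Ezh1 differed by -0.57. Among 19 Hox and other developmental factors the median was -0.02 and the largest difference was that of Pax6 (-0.72). Of 13 genes of the Ink4a and p53 group the largest were Phlda3 (-0.48), Cdkn2c (0.43) and Cdkn2b (-0.40). Cdkn2a itself (10.6, 11.9, 11.7 and 662 on the 4 arrays) was under the floor on both single knockouts, so that its values there are readings at background. Medians of oxidative phosphorylation (-0.01), cholesterol synthesis (-0.04), housekeeping (0.13) and ribosomal protein genes (0.10) were near that of all genes.

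Stress and daily-rhythm genes were read as well. With 1.41% of all genes past 2-fold, few or none are expected in these lists too. None of 27 immediate early genes passed 2-fold, and their median was 0.11. The farthest apart were Fosb, a subunit of the AP-1 transcription factor (494, 1136, 579 and 346), and Gadd45b, a stress sensor (489, 257, 462 and 459), in opposite directions. Of 28 heat shock and unfolded protein response genes none passed 2-fold, with a median of -0.06, and the inducible chaperone gene Hspa1b differed by -0.89. Of 18 circadian clock genes none did, with Npas2 at -0.75, the nuclear receptor Nr1d1 at -0.60 and Cry1 at 0.56. None of the 4 sex-linked genes at or above the floor passed 2-fold. Xist, expressed from the inactive X chromosome, read 45.5 and 54.2 units on the single knockouts against 122 in wild type and 611 in the double knockout. The Y-linked Kdm5d read 250.3 and 204 on the single knockouts. The mice were described as sex-matched, and the sex of those behind each array was not tested. Of the remaining lists 3 genes passed 2-fold. Fabp4, a fatty acid carrier of adipocytes (161, 223, 112 and 185), was higher by 1.00, only just past the line. Alas2, the first enzyme of heme synthesis in red cell precursors (36.0, 35.3, 14.9 and 42.1), was higher by 1.25 with the Mel18 value under the floor. Sprr1a, a cornified envelope protein of squamous epithelium (281, 29.9, 63.2 and 206), was lower by 1.08 with the Bmi1 value under the floor. In all, 30 of the 104 higher and 21 of the 61 lower genes were on any of the lists, which held 711 of the 11679 genes tested. The lists were chosen with earlier results of these data known, so these shares draw nothing about them.

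**Figure D4:**
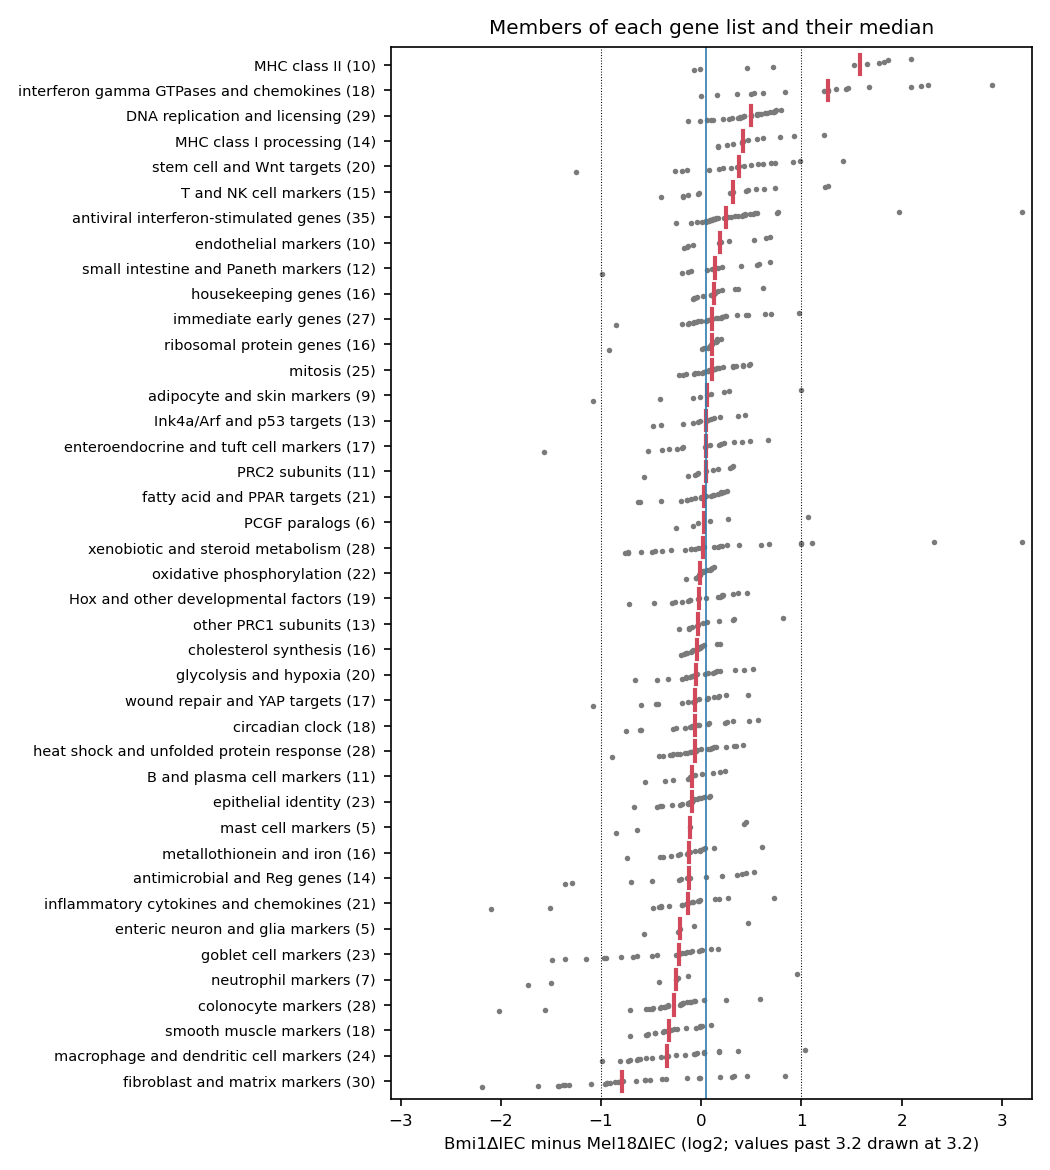
Log2 difference, Bmi1ΔIEC minus Mel18ΔIEC, on the horizontal axis for the members at or above the floor (grey points) of each gene list with at least 5 of them (number in brackets); red bars are list medians, the blue line is the median of all genes (0.05) and dotted lines mark 2-fold. Class II (median 1.59) and interferon gamma genes (1.26) lie farthest right and fibroblast and matrix markers (-0.79) farthest left.

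The arrays outside the contrast place these differences. Over all genes tested the wild-type value lay nearer the Bmi1-labelled value for 35.4%, since that array was the farther of the 2 from wild type. Among the 104 higher genes this was so for 47 (45.2%), among them H2-Aa, H2-DMa and Cd74, and 57 lay nearer the Mel18-labelled value. Among the 61 lower genes wild type lay nearer the Bmi1-labelled value for 16 (26.2%) and nearer the Mel18-labelled value for 45. The double-knockout value lay nearer the Bmi1-labelled one for 45 of the higher (43.3%) and 11 of the lower genes (18.03%), against 33.7% of all genes tested. These counts share arrays with the contrast and describe levels only.

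Probe sets for the same transcript gave a check of measurement but not of genotype. For 23 of the higher genes 32 further probe sets reached the floor, of which 29 had the same sign and 19 passed 2-fold the same way. For 18 of the lower genes 21 of 22 had the same sign and 12 passed. Over all genes 66.4% of 8139 further probe sets shared the sign of the main one, but most genes differed little. Genes past 2-fold were picked by size, and further probe sets under the floor were left out, so these shares cannot be compared. The exceptions among named genes were Snapc3, a subunit of the snRNA-activating complex, named after its values were seen, with 2 of 3 further probe sets of opposite sign, and Sparc.

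Some of the genes past 2-fold are neighbours in the RefSeq gene order; these groups were chosen after their values were seen. With members at most 5 places apart in the order of measured genes, 28 of the 104 higher genes fell into 10 runs and 10 of the 61 lower genes into 5. How many runs as many genes drawn at random would form was not counted, so clustering was not tested. Among the higher runs were H2-DMa, Psmb9, H2-Ab1, H2-Aa and H2-Eb1 on chromosome 17, the chemokines Cxcl9, Cxcl10 and Cxcl11 on chromosome 5, the carboxylesterases on chromosome 8, and Bhlhb9, Bex2, Bex4 and Bex1 on the X chromosome. The Bex genes encode small adaptor proteins of neurotrophin signalling, and Bex1 read 51.9 (wild type), 294 (Bmi1-labelled), 113 (Mel18-labelled) and 51.9 (double knockout). Among the lower runs were Col3a1 with Col5a2, S100a8 with S100a9, Clca4b with Clca4a, and Trim6 with Trim12a. Of the 50 measured genes on each side of Bmi1 on chromosome 2, 58 reached the floor and none passed 2-fold. Of those around Pcgf2 on chromosome 11, 67 reached the floor and 1 was lower, B4galnt2, a glycosyltransferase of intestinal glycans (-1.09). Over all genes tested 1.41% passed 2-fold, so counts this small draw nothing about these regions.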

How the data were processed

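Values were intensities on a linear scale, 1 per probe set of the Mouse430_2 array and genotype; the authors deposited them after processing with RMA in Affymetrix Expression Console, according to the submitters' processing notes, which give no version. Whether the arrays went through RMA in 1 run is not given in the sources used. RMA corrects background with a model, which compresses low values. The deposited intensities were converted to log2 with no pseudocount and no further scaling. Of 45037 probe sets, 932 have several symbols and 9160 are not in the annotation table and are unnamed here; 34741 of the 34945 with 1 symbol matched RefSeq gene identifiers (GRCm38.p6), giving 18193 genes. The comparison, the floor, the 2-fold rule and the 43 gene lists were chosen with earlier results of these data known. With 1 array per genotype there was no test, and precision is limited by that number of arrays. Named genes are all probe sets of the targeted genes, the 20 genes farthest apart in each direction, list members past 2-fold, up to 6 more per list by size, defining markers of other cells, and genes at least 2-fold on opposite sides of wild type. Further list members, named to show a list's range or a whole complex, were chosen after their values were seen. Clone-like names were counted (9 higher, 5 lower) and not named, apart from 1 in the closing section. The size rule was tested on simulated data. Alternatives changed the probe set per gene, floor, scaling, probe set types, fold and pseudocount. Python 3.11.15, pandas 2.3.3, numpy 2.4.6 and matplotlib 3.10.9 were used. Promoter sequences are RefSeq's; 1 further motif searched in them is not reported here.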

Additional observations from a re-analysis of the deposited data

Results flagged for a closer look

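For 3 genes the single-knockout arrays lay at least 2-fold on opposite sides of the wild-type array, above it on the Bmi1-labelled and below it on the Mel18-labelled array. The Bmi1 minus Mel18 difference was 3.00 for S100g, 2.65 for Gdpd3 and 2.79 for BC064078, a gene with a clone-like name whose Mel18-labelled value of 23.8 units was under the floor. With 1 array per genotype, and wild type shared by both contrasts, the difference was not tested.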

How the results depend on the processing

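The 104 higher and 61 lower genes were recounted under 9 alternatives. A floor at percentile 75 left 60 higher genes (41 lower). A 1.5-fold rule gave 405 and 276, and adding the floor as a pseudocount gave 50 and 34; both follow from the construction of these settings. All other counts, 77 to 119 higher and 45 to 81 lower, were within 1.5 times. Centring the arrays on genes at the floor moved the share of called genes that were higher from 63.0% to 51.5%. The median of the erythroid list, with 2 members at or above the floor, turned to -0.29 under that centring. Alas2, at 35.3 units on the Bmi1-labelled array, then fell under the floor and left Klf1 (-0.22 before centring) alone. Without probe sets designed against several transcripts Tnnt2 turned to 0.31. The probe set then used read 16.9 (wild type), 13.0 (Bmi1-labelled), 10.5 (Mel18-labelled) and 17.0 (double knockout), under the floor on every array. Of the values of 37 genes, those among the 20 farthest apart in each direction without clone-like names, 248 stayed within 0.16 of the main one on the log2 scale and 46 moved farther with the same sign. Of the medians of 43 lists, 325 values stayed within 0.16 and 14 moved farther. With the floor at percentile 75 the medians were 0.53 for T and NK cells, -0.32 for B and plasma cells, -0.64 for mast cells, 0.62 for adipocyte and skin, -0.10 for small intestine and Paneth and 0.40 for sex-linked genes. With no floor they were -0.16 for macrophages and dendritic cells and 0.09 for erythroid genes. With averaged probe sets they were -0.53 for matrix and 0.02 for endothelial markers. The neutrophil median was -0.93 with centring on genes at the floor, and the pseudocount gave 1.23 for class II, -0.59 for matrix and 0.20 for erythroid genes. List medians that crossed 0 from within 0.16 of it were counted as unmoved. No replicate could be left out. No paired analysis was possible because each genotype has 1 array.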
